A study of Mus musculus with 10 samples.

Results

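The genes described here encode splicing factors, heterogeneous nuclear ribonucleoproteins (hnRNPs), RNA helicases and an adaptor for mRNA export. Their sites were measured in mouse embryonic stem cells (ESC) and in the embryoid bodies (EB) made from them. The 8 genes are Son, Hnrnph2, Hnrnpul1, Sf3a3, Scaf11, Ddx21, Ddx10 and Alyref. Every listed site whose sequence fell in a transcript of one of them was taken, which gave 10 of the 1626 sites in the table. Son and Scaf11 have 2 sites each, so the 10 sites are not independent of one another. The genes were chosen by their KO minus WT cleavage efficiencies in an earlier look at the same table, so those differences are given as a description.

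The study profiled N6-methyladenosine (m6A) by how completely polyA RNA is cut at ACA. Its 10 libraries fall into 4 groups, and the deposited table holds 1 cleavage efficiency per site and group, from 0 (uncut) to 1 (fully cut). ESC were cultured with the cytokine LIF and the kinase inhibitors CHIR99021 and PD0325901 and were either wild type (WT, 3 libraries) or labelled Metll3-/- (KO, 3 libraries). EB were grown in suspension for 9 days in serum medium without LIF or the inhibitors, from cells of both genotypes (2 WT and 2 KO libraries). All of the stem cells had been expanded on fibroblast feeders. How the knockout was made, whether it is 1 clone, and whether libraries come from separate cultures are not stated in the sources used here. The values carry no replicate spread, no test could be made, and the depth behind them is unknown. The table holds no expression values, so neither the knockout nor the cell types could be checked against marker genes.

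As background, Mettl3 is the catalytic subunit of the complex that writes m6A on nascent messenger RNA. The bacterial RNase MazF cuts RNA before ACA and is blocked by m6A on the first A, so lower cutting in WT than in KO is the readout of methylation in assays of this kind; no label used here names the enzyme. Splicing factors assemble on introns and exon ends, hnRNPs coat pre-mRNA and steer the choice of exons, and m6A itself is placed mainly away from exon junctions, since the exon junction complex shields the RNA around them. Son is a large scaffold protein of nuclear speckles that helps to splice weak introns. Hnrnph2 is an hnRNP that binds runs of G, and Hnrnpul1 is an hnRNP U-like RNA-binding protein. Sf3a3 is a subunit of the U2 small nuclear ribonucleoprotein, and Scaf11 is an arginine- and serine-rich protein of spliceosome assembly. Alyref is an adaptor for export of spliced mRNA. Ddx21 and Ddx10 are DEAD-box helicases known mainly for ribosomal RNA processing rather than splicing.

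The sequences around the cut A are shown because the sites differ in the base ahead of GACA and in their neighbourhood. Each window is 29 bases of the matched GENCODE M21 transcript, 5′ to 3′ with T for U. Capitals mark the last bases ahead of the cut A, the A itself and the C and A after it (GGACA or AGACA).
Son site 1: ccacgtgatggaGGACActtgaaaagtga
Son site 2: tttgcctgctaaAGACAttcatcttgatt
Hnrnph2: ggctttaaagaaAGACAgagaaaccatgg
Hnrnpul1: gcgccgcggcctGGACActcgcggcctga
Sf3a3: gcaagcaagccaGGACAggcgaggagcgg
Scaf11 site 1: acactcgagccgAGACAgtcagtcagtcc
Scaf11 site 2: gaggagagagcgAGACAgagagaggagag
Ddx21: cgaagaagaggcAGACAtgcctaagccca
Ddx10: gaagccaacaaaAGACAagcaaaggccag
Alyref: gcaccaggagagGGACAcgtggaggcagc

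AGACA was the sequence at 6 of the 10 sites and GGACA at 4, whereas 37.5% of all 1626 sites were AGACA and 62.5% were GGACA. The window of Scaf11 site 2 is made almost wholly of G and A. Its 11-base site sequence recurs at 1 other listed site, as does that of Ddx10, and that of Hnrnpul1 recurs at 5. The window of Hnrnpul1 is rich in G and C, with 69.3% G or C from 50 nt before to 50 nt after its A, against a median of 53.5% over the 1423 sites that could be assigned to a gene. The Hnrnph2 site lay at the other end of the 10, at 35.6%. The nearest other ACA was 7 nt away at Ddx10, 14 nt at Scaf11 site 1, 16 nt at Hnrnph2 and 114 nt at Hnrnpul1. The median over the 10 sites was 34 nt, beside 35 nt over all assigned sites.

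The sites lay in coding sequence (CDS) at all 10 places, against 55.9% of assigned sites, if each is placed in the transcript nearest to its deposited position. The exception among other transcripts is Hnrnpul1, whose site falls in the 5′ UTR of 1 of its 3 matching transcripts. Both Son sites lay in exon 3 of Son-202, an exon of 5970 nt, at transcript positions 4667 and 5098 (chromosome 16, plus strand, mm9 positions 91659249 and 91659680). They were 1577 and 1146 nt from the nearest exon junction, and 431 nt apart. Both Scaf11 sites lay in the 2775 nt exon 11 of Scaf11-201, 150 nt (site 1) and 765 nt (site 2) from a junction (chromosome 15, minus strand, positions 96251128 and 96249267). The Hnrnph2 site was in exon 4 of Hnrnph2-202, 274 nt from a junction (chromosome X, plus strand, position 131139667), and the Hnrnpul1 site in exon 1, 234 nt from one in Hnrnpul1-202 and 128 nt in the transcript where it is in the 5′ UTR (chromosome 7, minus strand, position 26539593). The Ddx21 site was in exon 2, 281 nt from a junction (chromosome 10, minus strand, position 62061359).

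The remaining sites were in short exons. The Sf3a3 site lay in a 165 nt exon, 49 nt from a junction (exon 13, chromosome 4, plus strand, position 124405366). The Alyref site lay in a 175 nt exon, 71 nt from a junction (exon 5, chromosome 11, minus strand, position 120456398). The Ddx10 site lay in a 57 nt exon, 10 nt from a junction (exon 16, chromosome 9, minus strand, position 52957617). The transcripts also hold these motifs at places that were not listed: Son-202 has 7 GGACA and 9 AGACA, of which 2 were listed, Ddx21-201 has 10 and 12, of which 1 was listed, and Hnrnph2-202 has 2 and 1, of which 1 was listed.

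**Figure D1:**
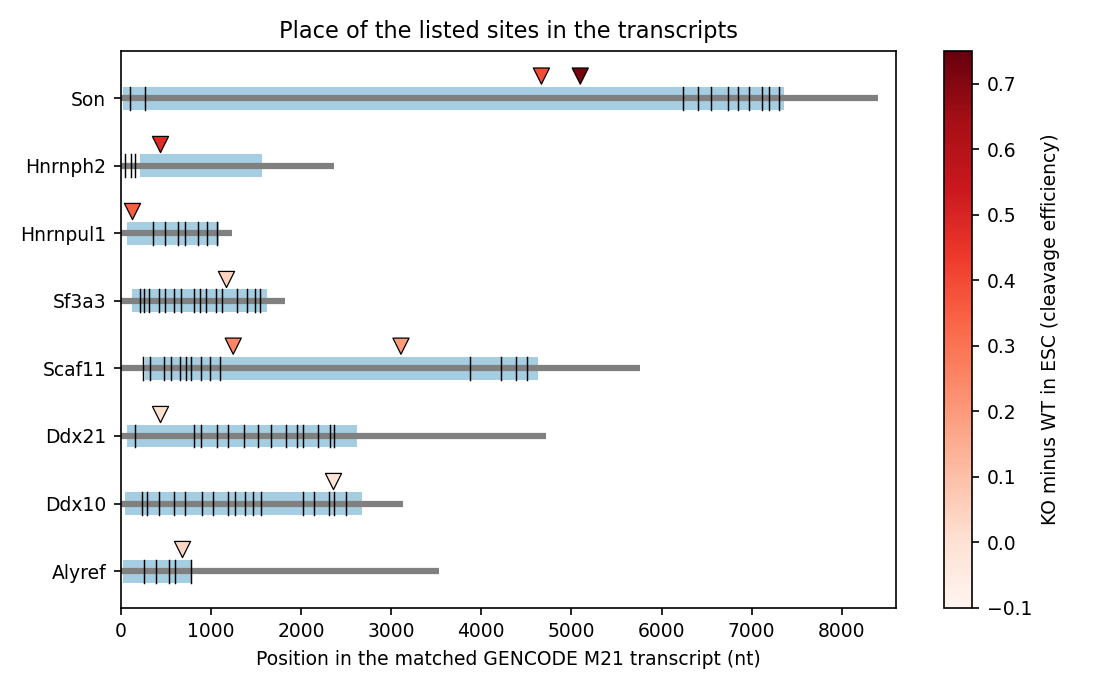
Matched transcripts drawn to scale from their 5′ end (horizontal axis, nt), with the CDS in blue, untranslated parts in grey, exon junctions as black ticks and listed sites as triangles coloured by KO minus WT cleavage efficiency in ESC. The Son sites, at 0.394 and 0.720, lie inside a single long exon, and the Sf3a3, Ddx10 and Alyref sites, at 0.0430, −0.00594 and 0.0389, lie between closely spaced junctions.

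Son had the site with the largest difference between genotypes. At Son site 2 the cleavage efficiency in ESC was 0.233 in WT and 0.953 in KO, and in EB it was 0.219 in WT and 0.934 in KO. The site was little cut in both WT columns and nearly fully cut in both KO columns, with differences of 0.720 and 0.715. These were larger than those of 94.8% of the 1046 sites with both ESC values and 95.7% of the 855 with both EB values. Son site 1 was at 0.503 (WT) and 0.898 (KO) in ESC, and at 0.608 (WT) and 0.944 (KO) in EB. It was cut to more than its neighbour in WT and to a like level in KO, which gave differences of 0.394 in ESC and 0.336 in EB. The site with GGACA was thus the one with the smaller difference of the pair, while over the whole table GGACA sites had the larger median difference in ESC (0.181 against 0.0677 for AGACA).

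The hnRNP genes also had less cutting in WT in both kinds of cell. The Hnrnph2 site was at 0.398 (WT) and 0.877 (KO) in ESC, and at 0.467 (WT) and 0.909 (KO) in EB, differences of 0.478 and 0.442. The Hnrnpul1 site was at 0.318 (WT) and 0.667 (KO) in ESC, and at 0.331 (WT) and 0.964 (KO) in EB. Its WT columns were nearly equal, and its KO column was 0.297 higher in EB than in ESC, an increase larger than at 99.3% of the 845 sites with both KO values. The KO minus WT difference at Hnrnpul1 was therefore 0.348 in ESC and 0.633 in EB. As a share of the KO value, 1 minus WT/KO was 0.756 in ESC and 0.765 in EB at Son site 2, 0.546 and 0.487 at Hnrnph2, and 0.523 and 0.657 at Hnrnpul1.

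**Figure D2:**
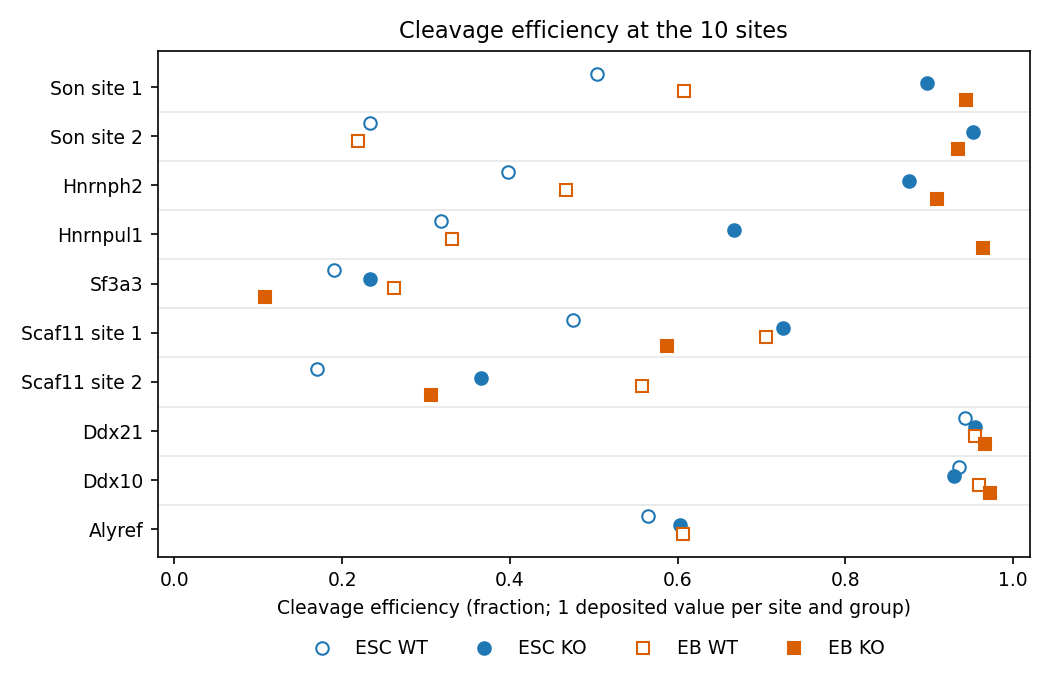
Cleavage efficiency (fraction, horizontal axis) at the 10 sites, with ESC as blue circles, EB as orange squares, WT open and KO filled; each mark is 1 deposited value, and Alyref has none in EB KO. At Son, Hnrnph2 and Hnrnpul1 the KO marks lie to the right of both WT marks, at Sf3a3 and Scaf11 the EB KO mark lies to the left of the EB WT mark, and the Ddx21 and Ddx10 marks all lie between 0.930 and 0.972.

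The Scaf11 sites changed order between ESC and EB. Scaf11 site 1 was at 0.476 (WT) and 0.726 (KO) in ESC, and at 0.705 (WT) and 0.587 (KO) in EB. Scaf11 site 2 was at 0.170 (WT) and 0.365 (KO) in ESC, and at 0.557 (WT) and 0.306 (KO) in EB. In ESC both sites were cut more in KO, by 0.250 and 0.195, and in EB both were cut more in WT, with differences of −0.118 and −0.252. Most of the change was in WT, where EB was higher than ESC by 0.229 at site 1 and 0.387 at site 2, more than at 95.1% and 99.4% of the 1071 sites with both WT values. In KO, EB minus ESC was −0.139 and −0.0598, and 4.97% and 19.9% of the 845 sites with both KO values were lower still. Taking the KO minus WT difference in ESC from that in EB gave −0.368 and −0.447, and that of site 2 was the lowest of the 759 sites with all 4 values. Of those 759 sites, 17 (2.24%) had KO higher by at least 0.10 in ESC and lower by at least 0.10 in EB. Both Scaf11 sites are among these, and no other gene has more than 1. Only 167 of the 1232 genes with assigned sites have 2 or more of them, so few other genes could. The Scaf11 sites are 1861 nt apart on the genome and share an exon and their 7 central bases. They are therefore 2 readings of 1 transcript.

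The Sf3a3 site was little cut in every column. It was at 0.190 in ESC WT and 0.233 in ESC KO, a difference of 0.0430, and at 0.261 in EB WT and 0.108 in EB KO, a difference of −0.153. The site remained little cut without Mettl3 in both kinds of cell. Among all sites, 22.3% of the ESC KO values and 21.7% of the EB KO values were below 0.4, and Scaf11 site 2 was the other of the 10 below it in both.

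The helicase sites and the Alyref site differed little between genotypes. Ddx21 was at 0.942 (WT) and 0.955 (KO) in ESC, and at 0.955 (WT) and 0.967 (KO) in EB. Ddx10 was at 0.936 (WT) and 0.930 (KO) in ESC, and at 0.960 (WT) and 0.972 (KO) in EB. Both sites were almost fully cut with and without Mettl3, and their differences between genotypes ranged from −0.00594 to 0.0126. The Alyref site was at 0.564 (WT) and 0.603 (KO) in ESC and at 0.606 in WT EB, with no value for KO EB. It was cut to an intermediate level in all 3 columns, 0.0389 higher in KO in ESC.

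A difference of at least 0.10 between columns was used for counts. In ESC 6 of the 10 sites were higher in KO by that size and 0 lower, where 55.4% of all 1046 sites were higher and 2.58% lower. The median over the 10 was 0.223, beside 0.130 over all sites. In EB 4 of 9 sites were higher and 3 lower, where 41.9% of 855 sites were higher and 5.96% lower, and the medians were 0.0122 and 0.0638. The 3 lower sites are those of Scaf11 and Sf3a3. All 4 values were present at 9 of the 10 sites, but at only 46.7% of all 1626 sites, so coverage was unequal. At 4 of these 9 sites KO was higher by at least 0.10 in both stages (37.2% of 759 sites): both Son sites, Hnrnph2 and Hnrnpul1. The upward shares are near those of the whole table. As a yardstick of size, the absolute difference of EB and ESC in KO had a 95th percentile of 0.167 over 845 sites. By it 6 of 10 sites differed between genotypes in ESC, where 44.5% of all sites did, and 5 of 9 in EB, where 35.4% did. Of the 3 sites lower in KO in EB, only Scaf11 site 2 (−0.252) was beyond the yardstick. Scaf11 site 1 (−0.118) and Sf3a3 (−0.153) were within it.

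**Figure D3:**
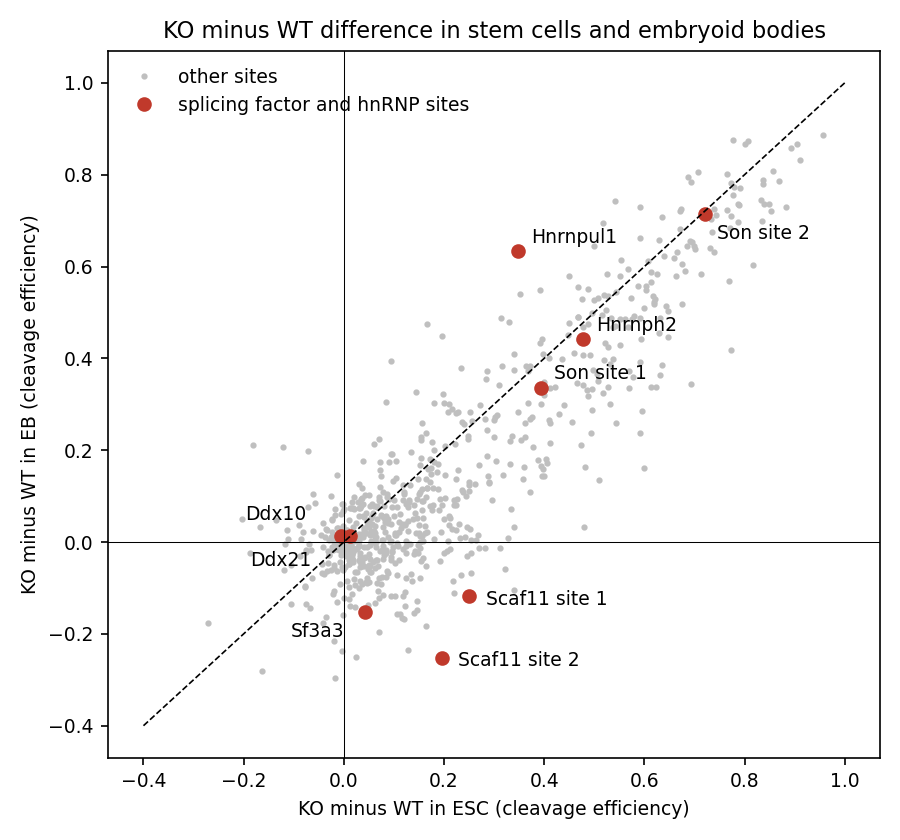
KO minus WT cleavage efficiency in ESC (horizontal axis) and EB (vertical axis) for the 759 sites with all 4 values, with the 9 sites of splicing factor, hnRNP and helicase genes in red and a dashed line of equal differences. Son and Hnrnph2 lie near the line, Hnrnpul1 lies above it at 0.348 and 0.633, and both Scaf11 sites lie below 0 on the vertical axis only.

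EB were compared with ESC within each genotype to see which sites differed between them. EB and ESC differed in medium and form of culture as well as in differentiation, and these cannot be told apart. In WT 3 of 10 sites were higher in EB by at least 0.10 (26.4% of 1071 sites) and 0 lower (5.51%). They were both Scaf11 sites and Son site 1, the last by 0.105. In KO 1 of 9 sites was higher, Hnrnpul1 (7.10% of 845 sites), and 2 were lower (11.1%), Scaf11 site 1 and Sf3a3, the latter with a difference of −0.125. The signed KO minus WT difference was lower in EB than in ESC by at least 0.10 at 3 of 9 sites (32.0% of 759), those of Scaf11 and Sf3a3 (−0.196), where it turned from positive to negative. It was higher by that size at 1 (5.53%), Hnrnpul1 (0.285). The comparisons share columns, so a high or low value in 1 column enters several of them: the low Sf3a3 and high Hnrnpul1 values in EB KO each count in 3.

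In ESC the sites with the larger differences lay farther from an exon junction. In the transcripts nearest to the deposited positions, all 6 sites higher in KO by at least 0.10 were at least 150 nt from a junction (Hnrnpul1 is at 128 nt in another transcript), and the 3 sites within 100 nt, in Ddx10, Sf3a3 and Alyref, differed by −0.00594 to 0.0430. Ddx21 was the exception among the 7 farther sites, at 281 nt with a difference of 0.0126. Over all CDS sites of spliced transcripts, 73 of 228 within 100 nt were higher in KO by at least 0.10, with a median of 0.0505, and 198 of 273 farther ones, with a median of 0.272. In EB the 7 farther sites were mixed: 4 were higher in KO by at least 0.10 and 2, both in Scaf11, were lower. Over all CDS sites in EB 34 of 194 within 100 nt were higher, with a median of 0.00869, and 126 of 222 farther ones, with a median of 0.144.

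**Figure D4:**
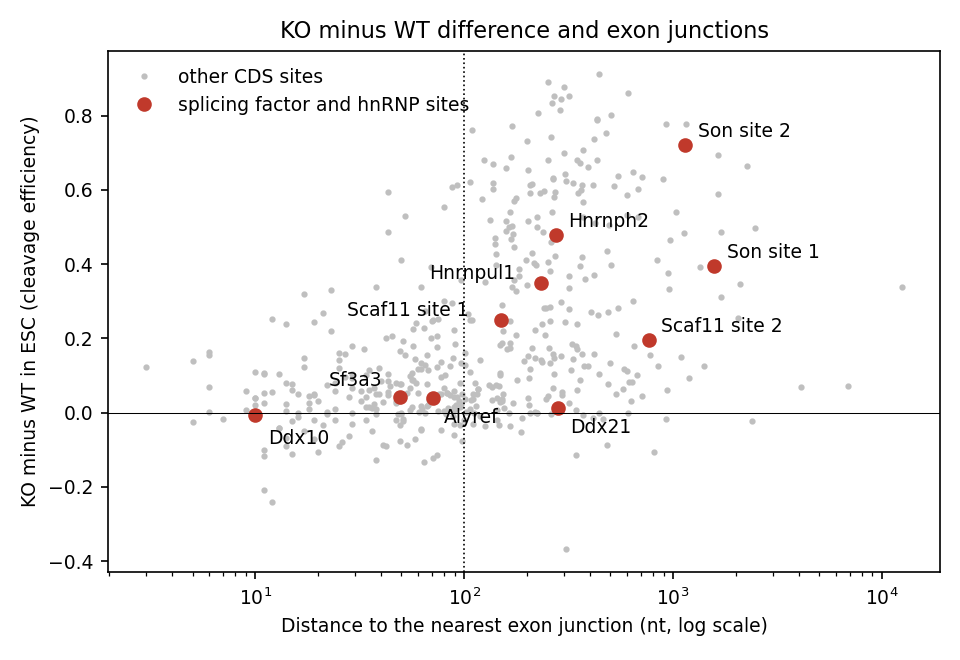
KO minus WT cleavage efficiency in ESC (vertical axis) against the distance to the nearest exon junction (nt, log scale) for sites in the CDS, with the 10 sites in red and a dotted line at 100 nt. The 3 red points left of the line lie between −0.00594 and 0.0430, and of the 7 to its right only Ddx21 lies below 0.10.

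Sites with the same local sequence gave a wide range of differences. The 7 central bases of Son site 2 recur at 30 other sites with both ESC values, whose differences had a median of 0.0698, and Son site 2 was above all 30. Hnrnph2 was above 48 of 53 sites with its 7 bases (median 0.0841). Son site 1 was in the middle of its set, above 17 of 34 (median 0.373), and Hnrnpul1 was above 30 of 54 (median 0.245). The Scaf11 sites, which share their 7 bases, were above 36 and 33 of 48 (median 0.0792). At the lower end, Alyref was above 6 of 22 (median 0.249), Sf3a3 above 22 of 69 (median 0.128), Ddx21 above 7 of 21 (median 0.0382) and Ddx10 above 8 of 33 (median 0.0326). With 9 central bases shared instead of 7, the sets are small and several medians move. The median was 0.302 over 6 sites for Son site 2, 0.390 over 6 for Hnrnph2, 0.457 over 7 for Son site 1 and 0.212 over 9 for Hnrnpul1. It was 0.0388 over 5 sites for Sf3a3, 0.0267 over 6 for Ddx21 and 0.0207 over 7 for Ddx10. The Sf3a3 site was therefore close to the sites with its longer sequence. The 2 sites that share 9 bases with Alyref were at 0.488 and 0.761, and none with both ESC values shared 9 with a Scaf11 site.

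**Figure D5:**
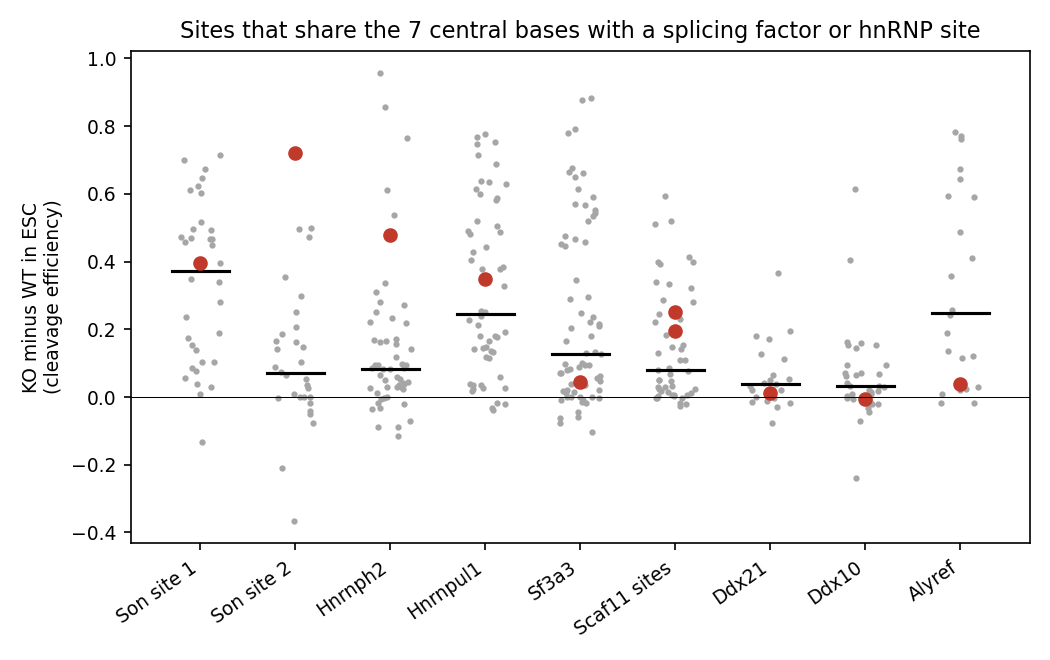
KO minus WT cleavage efficiency in ESC (vertical axis) at sites that share the 7 central bases, from 3 bases before to 3 after the cut A, with each site named on the horizontal axis; grey points are other sites, black bars their median and red points the named sites. Son site 2, at 0.720, lies above all 30 other sites of its sequence, and Alyref, at 0.0389, lies in the lower part of its 22.

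The deposited table sorts sites into classes with no account of how they were made. Of the 10 sites 6 were in the class named CellRep_intermediate, among them both Son sites, and 2 were in CellRep_high (Hnrnph2 and Hnrnpul1) and 2 in CellRep_low (Sf3a3 and Scaf11 site 2). These classes held 30.2%, 47.4% and 15.3% of all sites. A 4th class, named highest, held 7.07% of all sites and 0 of the 10. In ESC the median difference of the intermediate class was 0.0732, and both Son sites were above its upper quartile. The nearest site of another gene over the 4 columns, by Euclidean distance among 655 or 656 assigned sites with all values, was in Sh3gl1 for Son site 2 (distance 0.0346), Eif2b1 for Son site 1 (0.0564), Rrs1 for Hnrnph2 (0.0591), Atp5k for Ddx21 (0.0226) and Dek for Ddx10 (0.0131). Those of Scaf11 site 1 (Bnip2, 0.0809), Sf3a3 (Atp2a2, 0.0970), Hnrnpul1 (Vps4b, 0.121) and Scaf11 site 2 (Ppp6r3, 0.160) were farther away.

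Other genes of RNA processing had 20 listed sites in 17 genes, from a list of spliceosome, SR protein, hnRNP, helicase and mRNA export genes. In ESC 7 of 14 sites were higher in KO by at least 0.10 (55.4% of all sites) and 0 lower, with a median of 0.101. The largest were in Scaf8, a protein that binds the tail of RNA polymerase II (0.612), the DEAH-box helicase gene Dhx30 (0.592), the SR protein genes Srsf11 (0.208) and Srsf4 (0.125), and Cdc5l, a core spliceosome component (0.116). In EB 2 of 12 sites were higher by that size (41.9% of all sites), in Dhx30 (0.487) and at another site of Scaf8 (0.678). The median in EB was 0.00176. In WT 8 of 15 of these sites were at least 0.10 higher in EB than in ESC (26.4% of all sites), and 0 lower (5.51%). The Srsf11 site, for example, was at 0.759 (WT) and 0.968 (KO) in ESC, and at 0.967 (WT) and 0.969 (KO) in EB. The site was less cut in ESC WT than in the other 3 columns.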

How the data were processed

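The series has 1 table. It holds, per the file headers, cleavage efficiencies that the authors deposited for each site in each group, as a fraction from 0 to 1. The submitters' processing notes list STAR 2.5.3a, bedtools 2.26.0 and mm9 without saying what each was used for. No source used here states the read minimum, the pooling or the depth. The table held 0 value columns of no group. Groups come from the sample titles.

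The table gives no gene names. Each 11-base sequence (cut A at base 6) was matched to GENCODE M21 transcripts on the same chromosome and strand at most 100 nt from the transcript position and 10 Mb from the genome position in the table. A single best gene was required, with a shift between builds equal to that of a site in another gene (3 neighbours up and down the chromosome). Of 1626 sites, 1473 matched a gene and 1423 passed; 54 matched on the opposite strand. The member sites lay 0 to 85 nt (Sf3a3) from the deposited position. Of sites not taken, the nearest match was to Ddx21, 2452 nt from the deposited transcript position and beyond the 10 Mb limit on the genome. A Lima1 transcript also matched Scaf11 site 2 and was farther from the deposited position. Coordinates are those deposited (mm9, 1-based); regions and exons are those of M21.

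Differences were taken on the fraction, with no filter, in Python 3.11.15 with pandas 2.3.3, and counts were checked on simulated data. All listed sites of the members are named; of the RNA processing list, up to 5 upward and 3 downward differences per stage that reach 0.10. A site that this rule takes is not reported here and still counts in totals and medians. Members, lists and limits were chosen with earlier results of these data known. The other settings tried were a size of 0.20, subtraction of column medians, sites with all 4 values, exact transcript positions and, at KO values of at least 0.20, 1 minus WT/KO.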

Additional observations from a re-analysis of the deposited data

Results flagged for a closer look

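The Scaf11 sites were picked out because KO and WT differed by at least 0.10 in opposite directions in ESC and EB. The change of the KO effect was −0.368 at site 1 and −0.447 at site 2. Each group is a single column, and the difference was not tested. In EB the KO column at both sites was lower than the WT column, 0.587 against 0.705 and 0.306 against 0.557.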

How the results depend on the processing

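No paired analysis was possible because the columns carry no replicate number, and for the same reason no library could be left out. Subtracting column medians over the 759 complete sites moves every KO minus WT difference by −0.373 in ESC and −0.266 in EB. These shifts are larger than the median KO minus WT difference over all sites, 0.130 in ESC and 0.0638 in EB. A value below 0 after the shift therefore does not show a difference below that of the typical site. After the subtraction 2 of the 10 sites were higher and 6 lower in ESC, and 5 of 9 were lower in EB. Within WT 1 was lower in EB than ESC, and the signed KO minus WT difference was higher in EB at 4. Hnrnpul1 (−0.0250), Scaf11 site 1 (−0.123) and Scaf11 site 2 (−0.178) turned negative in ESC, as did the smaller differences of Sf3a3 (−0.330), Ddx21 (−0.361) and Alyref (−0.334). Son site 2 and Hnrnph2 stayed above 0.10 in both stages, and Son site 1 was at 0.0210 in ESC and 0.0701 in EB. In the RNA processing list 2 sites were higher and 12 lower in ESC, and 10 lower in EB. At a size of 0.20, 1 site, Scaf11 site 2, was lower in KO in EB and 0 were lower in EB within KO. In the list 3 were then higher in ESC and 0 lower in EB. With exact transcript positions 4 sites with ESC values and 3 with EB values are left: 3 higher in KO in ESC, 1 higher in EB, 0 higher and 1 lower in EB within KO, and 0 with a higher signed KO minus WT difference in EB; in the list 3 were higher in ESC, and 0 higher and 0 lower in EB. With complete sites alone 1 list site was higher in EB, and as 1 minus WT/KO 1 list site was lower in ESC.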
